A study of Homo sapiens with 6 samples.

Results

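The 10 genes described here encode JAK-STAT proteins: the transcription factors STAT3, STAT4, STAT5A, STAT5B and STAT6, the kinases JAK1, JAK2 and TYK2, and the inhibitors SOCS1 and SOCS3. They were taken by name, as every probe set (a group of short probes for 1 transcript) that the platform annotation assigns to 1 of these symbols alone, which gave 30 of the 54613 probe sets on the array. The mutated cells are BCWM1 cells, and the series title ties them to a CXCR4 mutation written C1013G. The parental cells are BCWM1 without that label. BCWM1, an established human line, comes from Waldenström macroglobulinemia, a B cell lymphoma with plasma cell features, and CXCR4 is the receptor of the chemokine CXCL12. Each group held 3 samples. The labels do not state how the mutated cells were made, whether they are 1 clone or whether a vector control was kept. They also do not say whether replicates came from different cultures, and the p-values therefore reflect only the spread among these arrays, which could be technical.

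Cytokines such as interleukin-6, interleukin-10 and the interferons bind receptor chains that carry JAK kinases on their inner side. The kinases phosphorylate the receptor and then the STAT proteins, which pair, enter the nucleus and switch on target genes. SOCS genes are among those targets, and their proteins bind receptors and kinases and shut the signal down. In Waldenström macroglobulinemia, interleukin-6 signalling through this route is known for its part in growth and in secretion of immunoglobulin M. The arrays measure mRNA, and STAT activity depends on phosphorylation, which was not measured.

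Paired STAT proteins bind DNA at TTC and GAA a few bases apart. The promoter windows of SOCS3 and STAT3 are shown because they hold TTC and GAA 2 bases apart. Binding of STAT proteins at that spacing was not tested. The 2 windows were also chosen because they belong to the 2 genes with the lowest log2 changes of the set by brightest probe set. Both are from RefSeq on build GRCh38.p14, run from 250 bases before to 50 after an annotated start, are written 5′ to 3′ on the gene's strand, and have the motif in capitals.
SOCS3, chr17:78360876-78361175, minus strand: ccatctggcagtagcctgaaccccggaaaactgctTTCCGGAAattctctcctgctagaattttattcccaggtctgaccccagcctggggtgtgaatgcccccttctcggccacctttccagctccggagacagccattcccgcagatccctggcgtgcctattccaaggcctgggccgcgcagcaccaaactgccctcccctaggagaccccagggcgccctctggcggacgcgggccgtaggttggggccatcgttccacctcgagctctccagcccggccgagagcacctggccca
STAT3, chr17:42388393-42388692, minus strand: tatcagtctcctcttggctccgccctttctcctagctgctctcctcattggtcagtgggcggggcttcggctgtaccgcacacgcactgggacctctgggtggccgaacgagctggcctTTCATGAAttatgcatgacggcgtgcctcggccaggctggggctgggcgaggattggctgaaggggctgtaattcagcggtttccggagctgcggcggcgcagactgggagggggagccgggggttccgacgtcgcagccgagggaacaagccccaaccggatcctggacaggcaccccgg

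The search covered TTCNNGAA and TTCNNNGAA on both strands, and each reads the same on either strand. A STAT motif with a wider spacing and an interferon motif were also searched, matched in windows of STAT5A and SOCS1, and were left out once this was known. The 10 genes have 19 windows in the table, some of which overlap. TTCNNGAA was in 5 of them, 1 of 2 of SOCS3, the only one of STAT3, 1 of 3 of JAK1 and both of STAT4, and in 7.74% of all 35116 windows. TTCNNNGAA was in 0 of the 19 and in 7.66% of all windows. Of the genes with TTCNNGAA in a window, SOCS3, STAT3 and JAK1 fell, and STAT4, which was dim, did not change past the test. STAT5B, STAT6, JAK2 and TYK2, whose windows held none of these motifs, fell too. Any link between these letters and the changes was not tested. A match is a description of letters and not a binding site.

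Values are linear intensities as the authors deposited them, 1 per probe set, with array medians of 31.42, 30.93 and 31.83 in mutated cells and 29.13, 28.46 and 28.99 in parental cells. Differences are on the log2(intensity + 16) scale, mutated minus parental, which understates the change of dim probe sets. The number of arrays limits the precision. B cell markers were bright, and all 9 of those measured lay above 31.83, the highest array median. Their summed intensity was 46694 to 48753 in mutated and 46697 to 48508 in parental arrays. All 8 plasma cell markers also lay above it, and their sum was 13674 to 14403 in mutated and 17910 to 18545 in parental arrays, with 4 lower and 1 higher past the test. Of T and NK cell markers 7 of 10 lay at or below that median (sum 212 to 234 in mutated, 197 to 239 in parental), and of stromal and epithelial markers 8 of 12 (1141 to 1219 in mutated, 1239 to 1257 in parental). Of myeloid markers 6 of 8 did (2807 to 2921 in mutated, 779 to 830 in parental). In that myeloid sum S100A9, a calcium-binding protein, accounted for 2734 ± 64.4 in mutated and 674 ± 26.7 in parental cells (SD, n = 3). The part of these marker differences in the results below was not tested. In such bulk samples fewer cells of a kind and less RNA per cell cannot be told apart.

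Nearly the whole set was lower in mutated cells. Of the 10 genes, each read from its brightest tested probe set, 9 fell and 0 rose, and STAT4 did not pass (limma with Benjamini-Hochberg adjustment over 32768 probe sets, threshold 0.05). Among all 13644 genes tested, 18.9% fell and 30.1% rose by the same rule. The members were chosen with earlier results of these data known. Shares over all genes or probe sets therefore stand beside the members' counts as description and not as a test of the set. Of the 30 member probe sets 28 were bright enough to be tested, and 20 of them fell, 0 rose and 8 did not pass. Over all tested probe sets 16.6% fell and 30.9% rose. The members' median log2 change was −0.54 by gene and −0.51 by probe set, against 0.04 and 0.06 over all genes and all probe sets. Every mutated value was under every parental value in 9 of the 10 genes, as it was in 24.8% of all genes. The balance of rises and falls over the whole array depends on the scaling, with 65.1% of called probe sets higher here, 49.97% with quantile normalization and 50.7% with median centring, but 9 member genes fell and 0 rose under each of the 3.

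**Figure D1:**
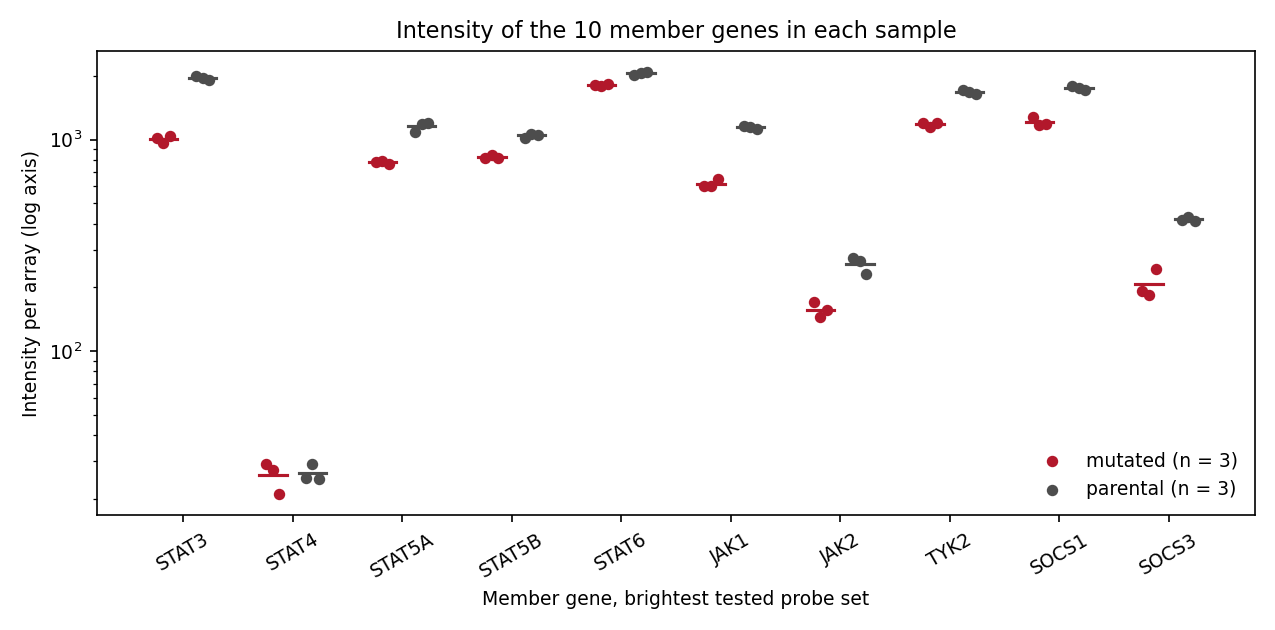
Intensity on a log axis for each of the 10 member genes, read from its brightest tested probe set. Points are the 3 mutated (red) and 3 parental (grey) samples and bars are group means. The red points lie below the grey in every gene but STAT4, where both groups sit between 20.95 and 29.24.

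Of the 3 kinases, JAK1 had the largest change on the brightest probe set. It is shared by the receptors of interleukin-6, interleukin-10, the interferons and the common gamma chain cytokines. That probe set, 201648_at, read 606, 601 and 647 in mutated cells, against 1158, 1142 and 1126 in parental cells. The groups were far apart, and the highest mutated value lay well below the lowest parental one. The log2 change was −0.87 (SE 0.051; limma, Benjamini-Hochberg adjusted p = 3.4e-05). A dimmer one, 1552611_a_at, read 309, 270 and 286 in mutated and 570, 636 and 620 in parental cells (log2 change −1.04), and 1552610_a_at averaged 73.3 ± 7.44 in mutated and 135 ± 5.62 in parental cells (SD, n = 3; −0.76). These 3 fell. The fourth, 239695_at, lay below the array medians at 20.7 ± 4.85 in mutated and 27.5 ± 1.89 in parental cells (SD, n = 3). Its groups did not overlap, but the change did not pass (log2 change −0.26; limma, Benjamini-Hochberg adjusted p = 0.085). The fifth, 240613_at, was too dim to be tested, at 14.9, 13.2 and 16.4 in mutated and 13.0, 13.5 and 13.4 in parental cells.

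JAK2 serves the receptors of interferon gamma, growth hormone, erythropoietin and the beta common chain. On 205842_s_at it read 170, 145 and 156 in mutated cells, against 275, 267 and 231 in parental cells. No mutated value reached a parental one, and the parental samples spread more than the mutated ones. The log2 change was −0.66 (SE 0.086; limma, Benjamini-Hochberg adjusted p = 0.0011). Its probe set 205841_at fell as well, at 163, 155 and 134 in mutated and 220, 223 and 214 in parental cells (log2 change −0.50). The remaining one, 1562031_at, went the other way without passing, at 92.1, 85.0 and 66.4 in mutated and 69.7, 64.7 and 70.7 in parental cells (log2 change 0.20; limma, Benjamini-Hochberg adjusted p = 0.17). Mutated replicate 3 alone lay within the parental range there, and without it the change was 0.31 and passed (limma, adjusted p = 0.011). TYK2, the partner kinase of JAK1 at type I interferon and interleukin-10 receptors, has 1 probe set, which read 1192, 1150 and 1203 in mutated cells, against 1722, 1683 and 1639 in parental cells. The groups did not overlap, and the log2 change was −0.50 (SE 0.048; limma, Benjamini-Hochberg adjusted p = 0.00029).

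STAT3 carries the signal of interleukin-6 and interleukin-10, and its 4 probe sets all fell. The brightest, 208991_at, read 1021, 966 and 1043 in mutated cells, against 2000, 1953 and 1915 in parental cells. On the log2(intensity + 16) scale mutated cells stood at 52.0% of the parental level, a log2 change of −0.94 (SE 0.052; limma, Benjamini-Hochberg adjusted p = 2.6e-05). On 208992_s_at the values were 521, 532 and 519 in mutated and 1425, 1233 and 1129 in parental cells (log2 change −1.24, 95% interval −1.45 to −1.03). On 225289_at they were 678, 639 and 793 in mutated and 914, 846 and 925 in parental cells (log2 change −0.35, 95% interval −0.56 to −0.13). That last interval lies clear of those of 208991_at (−1.07 to −0.82) and 208992_s_at, which overlap each other, so the size of the fall depends on the probe set. That smallest change did not pass without mutated replicate 1 or 2, or without parental replicate 1 or 3 (limma, adjusted p from 0.052 to 0.059). The dimmest, 243213_at, averaged 37.7 ± 3.79 in mutated and 62.7 ± 2.29 in parental cells (SD, n = 3; log2 change −0.55).

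STAT5A and STAT5B are close relatives that act downstream of interleukin-2, interleukin-7 and growth hormone, and whether probes for one bind the other was not tested. STAT5A read 783, 789 and 768 on its 1 probe set in mutated cells, against 1089, 1180 and 1192 in parental cells. The log2 change was −0.55 (SE 0.054; limma, Benjamini-Hochberg adjusted p = 0.00031). STAT5B read 821, 843 and 818 on its brightest probe set, 212549_at, in mutated cells, against 1018, 1066 and 1051 in parental cells. Neither gene's groups overlapped. That STAT5B change was −0.33 (SE 0.046; limma, Benjamini-Hochberg adjusted p = 0.0015). The other 4 STAT5B probe sets fell too, by log2 changes from −0.68 (212550_at) to −0.40 (205026_at), so its brightest probe set showed the smallest fall of the 5.

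STAT6 mediates interleukin-4 and interleukin-13 signals. It changed little, with 1805, 1789 and 1826 on 201331_s_at in mutated cells, against 2012, 2068 and 2089 in parental cells. The groups were apart by more than their own spread, at a log2 change of −0.19 (SE 0.045; limma, Benjamini-Hochberg adjusted p = 0.015). This call was lost without mutated replicate 2 (limma, adjusted p = 0.052) and as the mean over both STAT6 probe sets (0.16). The other STAT6 probe set, 201332_s_at, overlapped between groups at 65.5, 52.4 and 57.2 in mutated and 83.3, 71.1 and 46.7 in parental cells (log2 change −0.14; limma, Benjamini-Hochberg adjusted p = 0.55). STAT4, known from interleukin-12 signalling in T and NK cells, was dim, at 29.1, 27.4 and 20.95 in mutated and 25.1, 29.2 and 24.7 in parental cells. These lie around or below the array median, and the groups overlapped (log2 change −0.02, 95% interval −0.24 to 0.19; limma, Benjamini-Hochberg adjusted p = 0.85).

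Both inhibitors were lower on their brightest probe sets. SOCS3, induced by STAT3 and an inhibitor of interleukin-6 signalling through the gp130 receptor chain, read 193, 185 and 244 on 227697_at in mutated cells, against 416, 431 and 411 in parental cells. Mutated replicate 3 stood above the other mutated samples and still far below the parental ones. The log2 change was −0.97 (SE 0.10; limma, Benjamini-Hochberg adjusted p = 0.00043), the largest fall among the 10 genes' brightest probe sets. SOCS3 fell on 206359_at as well, with 33.2, 25.0 and 27.3 in mutated and 48.9, 57.8 and 57.8 in parental cells (log2 change −0.67). Its remaining probe sets were dimmer still and did not pass, at log2 changes of −0.13 (214105_at) and 0.03 (206360_s_at).

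SOCS1, which blocks JAK kinases directly and is induced by interferon, read 1284, 1173 and 1190 on 210001_s_at in mutated cells, against 1786, 1761 and 1706 in parental cells. The groups did not overlap, and the log2 change was −0.52 (SE 0.055; limma, Benjamini-Hochberg adjusted p = 0.00044). Its other probe sets were dim. Those at 45.3 ± 7.56 (209999_x_at) and 40.6 ± 4.09 (213337_s_at) in mutated cells, against 58.4 ± 8.67 and 44.8 ± 11.1 in parental cells (SD, n = 3), did not pass (limma, Benjamini-Hochberg adjusted p = 0.096 and 0.62). The last, 210000_s_at, was too dim to be tested, at 16.3, 13.7 and 12.4 in mutated and 10.7, 9.28 and 12.5 in parental cells.

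**Figure D2:**
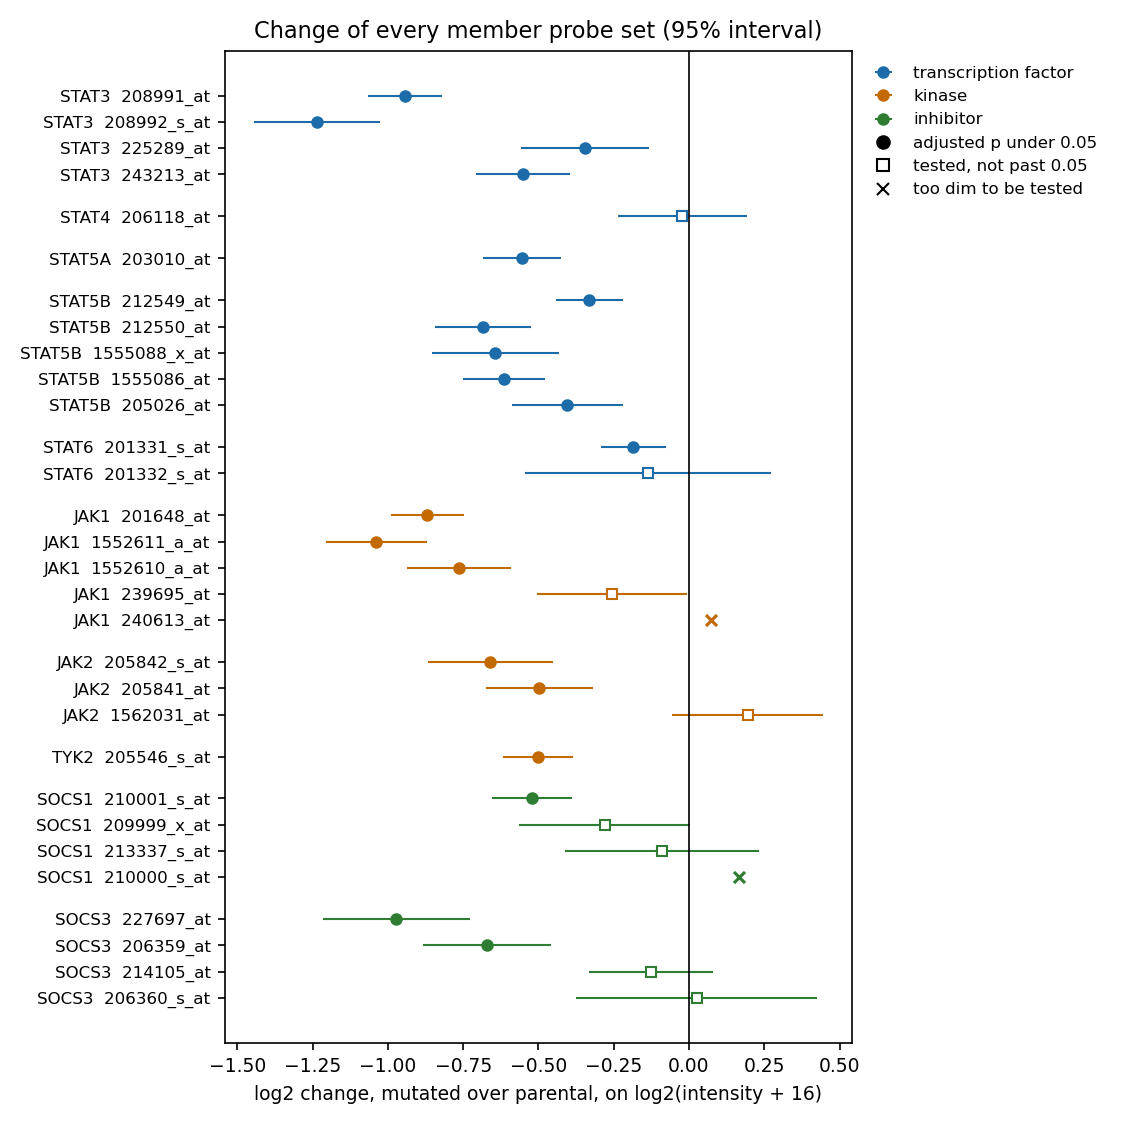
The log2 change of each of the 30 member probe sets, mutated over parental, with its 95% interval, brightest first within a gene and coloured by role. Filled circles passed the test, open squares did not, and crosses were too dim to be tested and carry no interval. The 20 filled circles all lie left of 0.

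By brightest probe set, the order from the largest fall was SOCS3, STAT3, JAK1, JAK2, STAT5A, SOCS1, TYK2, STAT5B, STAT6 and STAT4. The 95% intervals of neighbours in that order overlap at each step, and differences between adjacent genes were not tested. The order also rests on the choice of probe set. With the tested probe sets of each gene averaged, STAT3 had the lowest log2 change (−0.77), SOCS3 stood at −0.44, JAK2 at −0.32 and SOCS1 at −0.30, and STAT5B at −0.54, and all 5 still fell (limma, Benjamini-Hochberg adjusted p from 4.3e-05 to 0.0095). By role, 11 of 13 transcription factor probe sets fell, 6 of 8 kinase probe sets and 3 of 7 inhibitor probe sets, against 16.6% of all tested probe sets. Probe sets of 1 gene are not independent, and STAT3 and STAT5B hold 4 and 5 of the transcription factor ones. The inhibitor probe sets that did not pass were dim, so these counts do not rank the roles. The 8 member probe sets that did not pass included the 4 dimmest of those tested. Among all 13644 genes, 224 had a lower log2 change than SOCS3, 240 a lower one than STAT3 and 288 a lower one than JAK1, or 2.11% of genes for the last. For STAT6 the share was 22.8% and for STAT4 41.7%.

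**Figure D3:**
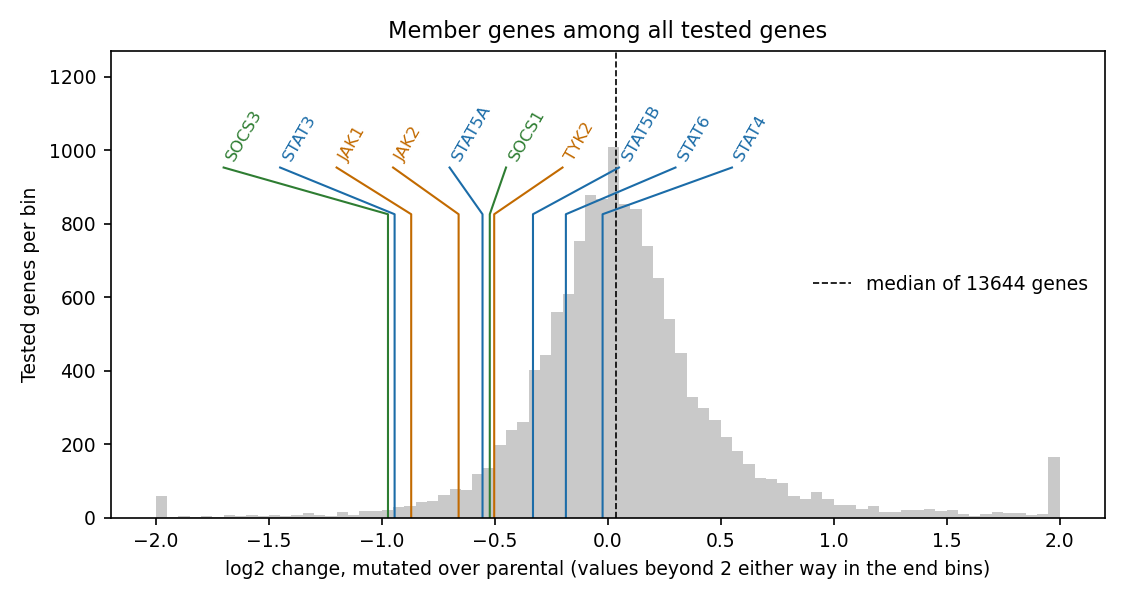
Histogram of the log2 change, mutated over parental, of all 13644 tested genes, with the 10 members marked and coloured by role as in the plot of probe sets. The dashed line is the median of all genes, 0.04, and the 10 members lie left of it, from −0.97 to −0.02.

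STAT5B, STAT5A and STAT3 follow each other on chromosome 17 with no protein-coding gene between them in the RefSeq table of GRCh38.p14. The change was −0.33, −0.55 and −0.94 along that order. Of the 5 protein-coding genes on either side, a range chosen after the members' values were seen, 7 of 10 were tested, and 2 fell (HCRT and ATP6V0A1), 2 rose (GHDC and NAGLU) and 3 did not pass (limma with Benjamini-Hochberg adjustment). The nearest tested gene beyond STAT5B, GHDC, rose at a dim level, with 47.4 ± 3.67 in mutated and 34.3 ± 4.60 in parental cells (SD, n = 3; log2 change 0.34). The nearest tested gene beyond STAT3, ATP6V0A1, a proton pump subunit, fell, with 509 ± 8.58 in mutated and 642 ± 30.4 in parental cells (−0.32). NAGLU, a lysosomal enzyme, rose next to it (0.44). Whether the fall of the 3 STAT genes has to do with their shared position was not tested.

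**Figure D4:**
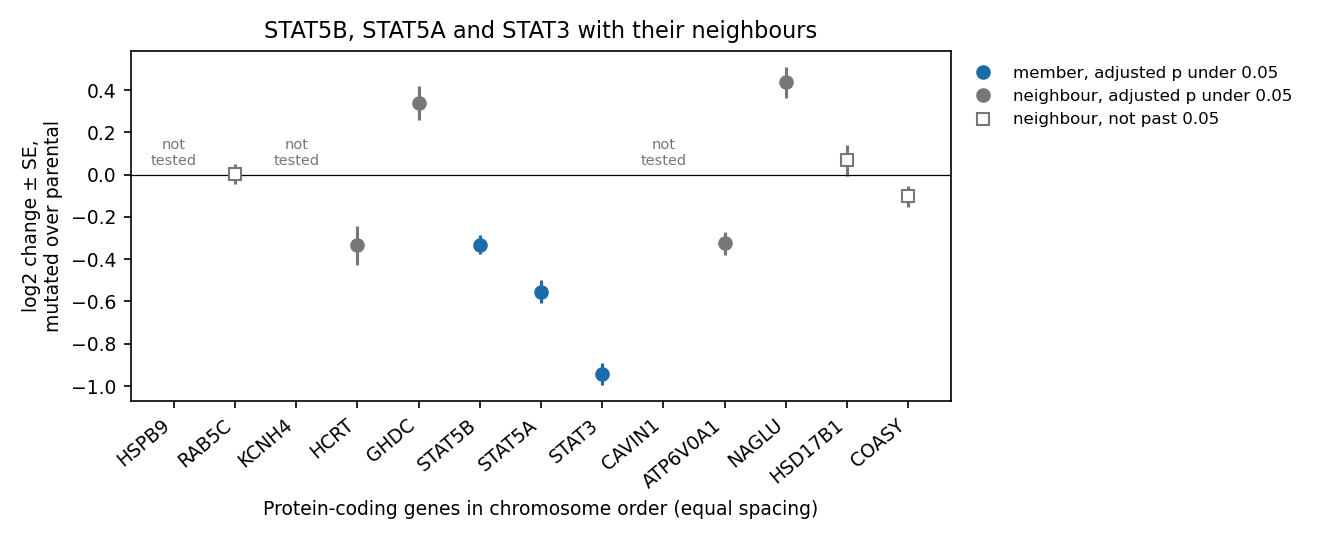
The log2 change with its SE for STAT5B, STAT5A and STAT3 (blue) and the 5 protein-coding genes on either side (grey), in chromosome order with equal spacing. Filled circles passed the test and open squares did not. The 3 members lie from −0.94 to −0.33, and the tested neighbours from −0.33 to 0.44.

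The other members of these families did not move as one. Of 7 measured, 4 rose, 2 fell and SOCS2 did not pass, with a median log2 change of 0.25. JAK3, the kinase of the common gamma chain, fell, with 333, 334 and 351 in mutated cells, against 629, 625 and 585 in parental cells (log2 change −0.82; limma, Benjamini-Hochberg adjusted p = 5.2e-05), though its other probe set gave −0.16. SOCS4 fell (−0.40), with 0.31 on its other probe set. SOCS5 rose, with 279, 294 and 308 in mutated cells, against 184, 195 and 185 in parental cells (log2 change 0.60), and its other probe sets gave 0.55 and 0.73. SOCS6 (0.54, other probe sets −0.07 and 0.82), CISH (0.37) and SOCS7 (0.25) rose too. CISH, a STAT5 target and inhibitor, gave −0.31 and −0.07 on its other probe sets. So while 4 kinase genes of the family were lower on their brightest probe sets, the SOCS family was split, with SOCS1, SOCS3 and SOCS4 lower and SOCS5, SOCS6, SOCS7 and CISH higher.

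Receptor chains changed in both directions: of 31 tested, 13 rose, 11 fell and 7 did not pass, with a median of 0.01. IL6R, the interleukin-6 binding chain upstream of JAK1 and STAT3, fell, with 381, 375 and 343 in mutated cells, against 730, 720 and 731 in parental cells (log2 change −0.96; limma, Benjamini-Hochberg adjusted p = 3.4e-05). IL23R (−2.36) and CSF2RB (−1.49), the beta common chain, fell too. IL6ST, the interleukin-6 signalling chain, rose, with 3440 ± 108 in mutated and 2700 ± 115 in parental cells (SD, n = 3). Its log2 change was 0.35 (limma, Benjamini-Hochberg adjusted p = 0.0025), and its 5 other tested probe sets gave 0.04 or more. The interleukin-6 receptor chains thus went opposite ways. GHR, the growth hormone receptor that signals through JAK2 and STAT5, rose, with 1561 ± 60.3 in mutated and 112 ± 4.65 in parental cells (SD, n = 3; 3.63). IL7R, which signals through JAK1 and STAT5 (3.07), and IL3RA (1.49), the partner of CSF2RB, rose as well.

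Of 13 tested ligand genes 4 rose, 4 fell and 5 did not pass. IL10, whose protein acts through JAK1, TYK2 and STAT3, read 210, 234 and 190 in mutated cells, against 36.2, 50.1 and 51.5 in parental cells (log2 change 1.88; limma, Benjamini-Hochberg adjusted p = 5.1e-05). The shared p40 subunit gene of interleukin-12 and interleukin-23, IL12B, fell, with 286, 316 and 273 in mutated cells, against 1177, 1116 and 1227 in parental cells (−1.95). Its partner genes went opposite ways, IL12A lower (−0.44) and IL23A higher (0.97). IL7 rose (0.36) and IL11 fell (−0.54). IL6 fell at a dim level, with 28.1, 16.4 and 11.9 in mutated cells, against 45.0, 43.7 and 44.6 in parental cells (log2 change −0.82; limma, Benjamini-Hochberg adjusted p = 0.0058).

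Of 13 other negative regulators 6 rose, 3 fell and 4 did not pass. The 3 that fell are phosphatases known to act on JAK kinases: PTPRC, which encodes CD45 (−1.18), PTPN6, which encodes SHP-1 (−0.48), and PTPN1 (−0.31). Those that rose were the STAT inhibitor genes PIAS1 (0.37), PIAS2 (0.47), PIAS3 (0.26) and PIAS4 (0.41), with PDLIM2 (0.60) and the phosphatase gene PTPN2 (0.16). The other PIAS4 probe set gave −0.11, and those of PTPN2 ran from −0.14 to 0.32. PIAS1 read 1882, 1838 and 1938 in mutated cells, against 1433, 1447 and 1481 in parental cells. The groups of PTPRC, at 2047 ± 56.8 in mutated and 4644 ± 31.9 in parental cells (SD, n = 3), were likewise far apart.

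Known targets of the STAT proteins, other than SOCS1 and SOCS3, changed in both directions, with more falls than rises among those of STAT3 and STAT5. Among all genes tested 18.9% fell and 30.1% rose, with a median of 0.04. Of 17 tested STAT3 targets, 9 fell, 6 rose and 2 did not pass, with a median of −0.17. PRDM1, the plasma cell regulator BLIMP1 (−1.59), IL2RA (−1.58) and BATF (−0.55) fell. PRDM1 is also among the plasma cell markers, whose summed intensity was lower in mutated cells. CEBPD, barely measurable in parental cells, rose, with 172, 174 and 179 in mutated cells, against 3.05, 4.05 and 1.82 in parental cells (log2 change 3.33), and CCND1, cyclin D1, rose by 1.25. IL10, given above among the ligands, is also on the list of STAT3 targets and rose (1.88). Of 12 STAT5 targets 5 fell and 2 rose. The kinase gene PIM2 (−0.60) and the survival gene BCL2L1 (−0.75, with −0.13 and 0.09 on its other probe sets) fell, and its relative PIM1 (0.34) rose with CISH.

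Of 11 STAT6 targets 3 fell, 4 rose and 4 did not pass. The chemokine gene CCL22 fell, with 5059, 4962 and 4800 in mutated cells, against 9804, 10422 and 9869 in parental cells (log2 change −1.02; limma, Benjamini-Hochberg adjusted p = 1.8e-05). FCER2, which encodes CD23 (−0.31), and CCL17 (−0.32) fell, and TGM2 (1.06) and GATA3 (0.48) rose. The medians were −0.11 for STAT5 targets and −0.02 for STAT6 targets. Several targets stand in more than 1 list. The lists are short textbook selections, chosen with earlier results of these data known.

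**Figure D5:**
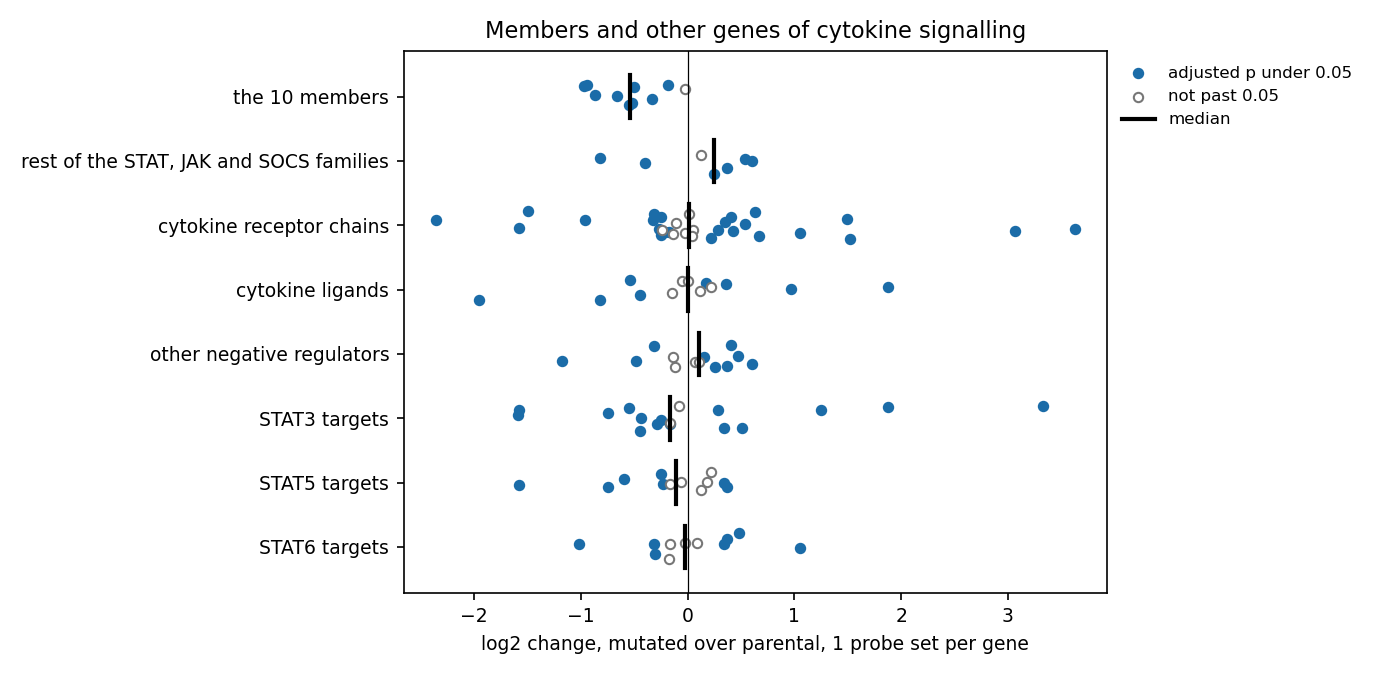
The log2 change, mutated over parental, of the 10 members and of the tested genes of 7 lists of cytokine signalling, 1 point per gene, spread vertically only to separate points. Filled points passed the test, open ones did not, and the black bar is the median. The members' median is −0.54, and those of the lists run from −0.17 to 0.25.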

How the data were processed

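Total RNA of 6 samples was copied into biotin-labelled cRNA and hybridised to arrays, per the labels' protocols. The authors deposited 1 linear intensity per probe set and array. No label or header names their summary method, background correction or scaling, and no detection calls were used. Groups came from the sample titles. Probe sets were named from the platform annotation (41091 with 1 gene symbol, 1801 with several, 11721 with none), and the Entrez IDs of all 10 members matched RefSeq's table of GRCh38.p14 under the same symbol.

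Values were transformed as log2(intensity + 16), and the dimmest 40% by mean were left out. A linear model of the group alone was fitted to the other 32768 with limma 3.58.1 in R 4.3.3, with two-sided moderated tests from eBayes and Benjamini-Hochberg adjustment over these 32768. Each gene was read from the brightest of its tested probe sets. The procedure was tested on simulated data. Arrays of 1 group correlated across the tested probe sets at a Pearson's r of 0.994 to 0.996, and arrays of different groups at 0.967 to 0.970.

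Members and lists were chosen with earlier results of these data known, and some items are not reported here. All member probe sets are named, and of each other pathway list up to 3 genes per direction with the smallest adjusted p. Genes beyond these (SOCS7, SOCS2, PIAS3, PIAS4, PTPN2, IL6, IL6ST) and the chromosome neighbours were named after their values were seen. Alternatives were quantile normalization, median centring, no filter or the dimmest 60% left out, eBayes with trend and robust, array weights, pseudocounts of 1 and 64, a replicate block, each sample left out, averaging a gene's probe sets, and dropping those with the suffix _s_at or _x_at. Plots were made in Python 3.11.15 with matplotlib 3.10.9.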

Additional observations from a re-analysis of the deposited data

How the results depend on the processing

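Of the 10 member genes, 9 fell in mutated cells under every alternative run except 3. These were without mutated replicate 2 and averaging the probe sets of a gene, where 8 fell and STAT6 did not pass, and dropping those with the suffix _s_at or _x_at, where 6 of 7 fell because TYK2, SOCS1 and STAT6 have no other tested probe set. No member gene rose under any of the 17 alternatives. The count of member probe sets that fell ran from 18 to 20 when a sample was left out and from 18 to 22 over the 15 alternatives that give a count by probe set. The count that rose ran from 0 to 1 when a sample was left out, the 1 being the JAK2 probe set 1562031_at without mutated replicate 3. STAT4, which did not pass, turned sign with array weights (log2 change 0.015), without mutated replicate 3 (0.064) and without parental replicate 2 (0.026), and ran from −0.079 to 0.064 when a sample was left out.

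Same-numbered samples of the groups correlated in their deviations from the group means at 0.11, 0.027 and 0.11 for numbers 1, 2 and 3, and each sample correlated best with its own number. This is a hint from the data and not from the labels. With the replicate block 9 member genes and 22 member probe sets fell and 0 rose, the 2 added probe sets being dim ones of JAK1 and SOCS1. Over all probe sets 5212 fell and 9685 rose with the block, against 5433 and 10120 without it. Dim probe sets limit what can be said of STAT4 and of the dimmer SOCS1, SOCS3 and JAK1 probe sets.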
